A study of Mus musculus with 4 samples.

Results

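N6-methyladenosine (m6A) peaks of the control mouse heart were taken as every row of the peak list made from the control immunoprecipitation (IP) and its own input, which gave 20766 of the 41945 peaks in the series. The control hearts came from Wtapflox/flox mice, which carry loxP-flanked alleles of Wtap and were 4 days old. Total RNA of 7 such mice was pooled to 300 µg, and an antibody against m6A was left on its fragments, each near 100 nt long, for 2 h. Paired reads of 150 bases were taken of the precipitated RNA and of input RNA that saw no antibody. The other genotype of the series, Wtap-CKO, is a conditional knockout, and its list is not described; the sources used here do not give its Cre driver. The control hearts thus gave 1 IP and 1 input library, so nothing below has a replicate check, and the exact 95% intervals cover counting error only.

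m6A is laid on RNA by a writer complex of the METTL3 and METTL14 methyltransferase pair with regulatory subunits such as WTAP, mostly at adenosines inside a short consensus whose commonest form is GGACU. FTO and ALKBH5 can remove it, and reader proteins of the YTH family bind it and steer splicing, export, translation and decay. In mammalian mRNA the mark is known to collect in long internal exons and around stop codons.

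Each row of the list is a peak, that is, a stretch of annotated exon where IP reads were enriched over input reads. Its fold is the authors' linear ratio of IP over input in that peak. Its log10 p is the authors' score for that enrichment, where a more negative value is stronger evidence of it. Where read counts could be recovered, as described below, it was the log10 p of a binomial tail. Such a value falls with more reads at the same fold, so a very negative log10 p need not mean a large enrichment. A peak that crosses a splice junction is listed as several exonic blocks, and its exonic width is the sum of these blocks. Positions count from 1 in mouse build GRCm39. Which transcript region a peak lies in was not analysed here, nor were the bases under it, apart from 3 microRNA hairpins. The list does not show how much of a transcript was present, so a gene without a peak may be unmethylated, weakly transcribed or too shallowly read.

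Width and strength varied over a wide range. The median exonic width was 270 bases (quartiles 180 and 449), the narrowest peak had 83 bases and the widest 4649. Folds had a median of 7.22 over 20766 peaks (order-statistic 95% interval 7.03 to 7.22) and ran from 1.14 to 148. A fold of at least 10 was reached by 7475 peaks, 36.0% of all. A width of at least 1000 bases was reached by 758 peaks (3.65%). Of 21900 symbols of protein-coding genes in the RefSeq table, 9389 had at least 1 peak (42.9%).

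Many genes carried more than 1 peak. Of 10734 genes with a peak, 5281 had 1 peak, 2996 had 2, 1355 had 3, and 24 had 10 or more. Genes with 2 or more peaks numbered 5453, which is 50.8% of genes with a peak (95% interval 49.9 to 51.8). The 2457 genes with 3 or more held 45.7% of all peaks. Peaks of single-peak genes had a median fold of 7.40 and a median width of 241 bases, and peaks of genes with 6 or more had 6.82 and 271 bases, so the number of peaks in a gene went with little difference in the fold of each.

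**Figure D1:**
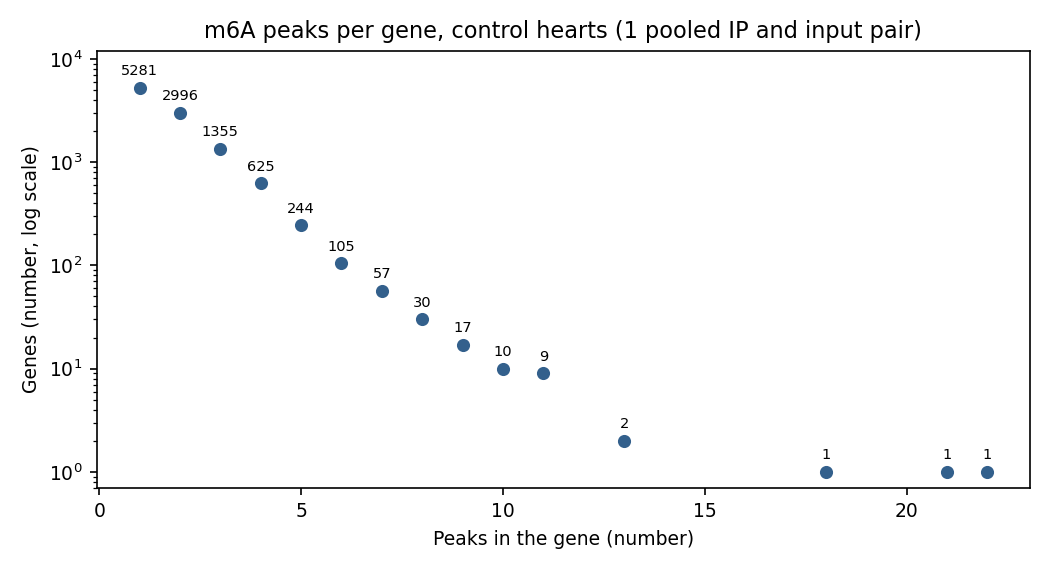
Number of genes (vertical axis, log scale) by the number of m6A peaks in the gene (horizontal axis) in the control heart pool. The number printed at each point is the count of genes, which falls from 5281 genes with 1 peak to single genes at the highest numbers, among them Ahnak with 18 peaks and Ttn with 21.

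Ttn, the gene of the giant spring protein titin, was among the genes with the most peaks. It had 21 on the minus strand of chromosome 2, all of 1 block. Of the Ttn peaks, 8 lay close together at the 3′ side between 76537154 and 76544890, with folds of 1.59 to 4.43 and log10 p values from -5.01 to -416. The strongest of these by log10 p was 76541655 to 76542285 (631 bases, fold 4.43). The other 13 Ttn peaks, further towards the 5′ end, had folds of 2.47 to 17.6, of which 5 lay within the range of the 3′ group and 8 above it. Their log10 p values ran from -2.95 to -15.7 in all but 1, the peak at 76746768 to 76747158 (fold 9.74, log10 p -82.0). A peak at 76569327 to 76569447 had a fold of 17.6 with a log10 p of -4.58, and the 5′-most peak, 76775833 to 76776043, had 13.6 with -6.90. For the peak with 17.6, the read counts recovered as described below were 22 IP reads over 1 input read. That input count could be a floor set by the caller.

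Ahnak, which encodes a very large scaffold protein, had 18 peaks on the plus strand of chromosome 19, of which 17 had 1 block. They stood within 8977071 to 8995621, and the one with the smallest log10 p, -344, was a peak of 1141 bases at 8993522 to 8994662 with a fold of 9.65. Folds in Ahnak ran from 2.13 to 9.99. None reached 10, although 3 of its peaks were over 800 bases wide.

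Spen and Myo18a had 13 peaks each. Spen encodes a large nuclear RNA-binding co-repressor related to the RBM15 proteins of the m6A writer. Its folds ran from 2.45 to 27.8, the latter in a peak of 1559 bases at 141205131 to 141206689 on chromosome 4. The 3′-most Spen peak (141195291 to 141195501) had 3.04 and the 5′-most (141265518 to 141265848) had 20.5. Myo18a encodes an unconventional myosin. Its folds were more even, between 7.23 and 8.95 in 9 of the 13 peaks, and the lowest, 1.60, stood at the 3′-most place. The genes with 11 peaks were Golgb1 and Dst, which encode long coiled-coil and cytoskeletal linker proteins, the giant cadherin genes Dchs1 and Fat4, the histone methyltransferase gene Kmt2d, Tnrc18, Stard9, Zfp469 and E130317F20Rik.

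Some places are listed more than once, which raises the count of their gene. The 11 peaks of E130317F20Rik on chromosome 10 included near-duplicates, such as 79689575 to 79689875 (fold 34.5) and 79689581 to 79689880 (fold 29.7). In the whole list, 971 peaks shared at least 1 exonic base with another peak on the same strand, in 465 groups, of which 182 lay within 1 gene. Peaks of a gene on the opposite strand overlapped in 1607 cases (7.74%), and there the calls do not tell a gene from its antisense partner.

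Within a gene, the gaps between neighbouring peaks varied widely. Over 10032 pairs of neighbours the median genomic gap was 1335 bases, 27.7% of gaps were 300 bases or less, and 25% were over 10 kb. The place of a peak along its gene went with both its fold and its log10 p, in opposite directions. In the 1355 genes with 3 peaks, the smallest log10 p stood at the 3′-most peak in 43.5% (40.8 to 46.2) and at the 5′-most in 20% (17.9 to 22.3) of genes without a tie. The largest fold stood at the 5′-most peak in 43.6% (40.9 to 46.3) and at the 3′-most in 26.8% (24.5 to 29.3). Median folds from the 5′ to the 3′ end were 8.82, 6.62 and 6.08, and median log10 p values were -7.46, -11.9 and -13.4.

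**Figure D2:**
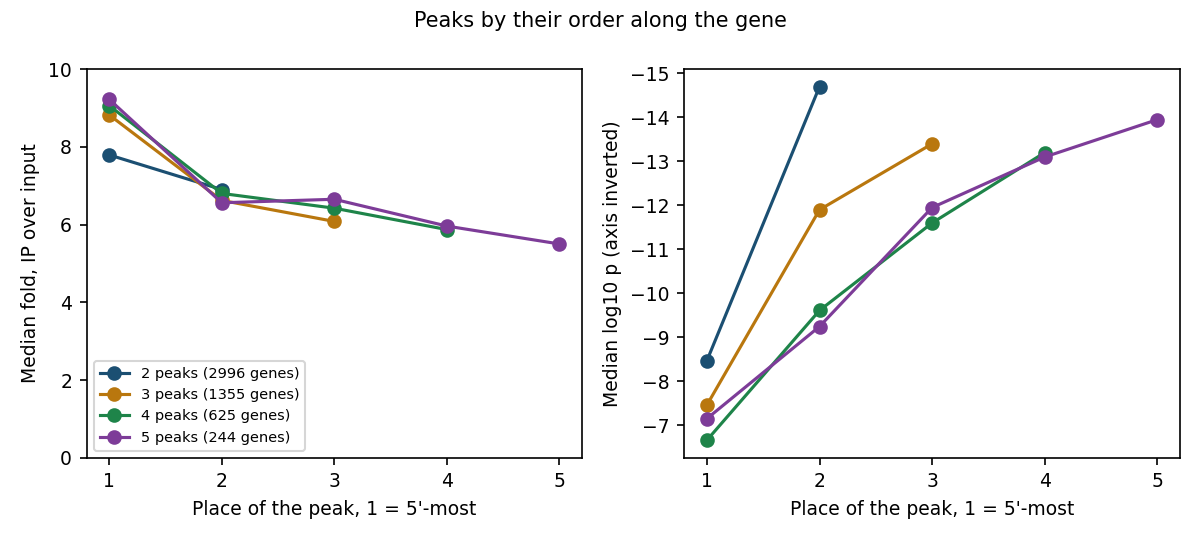
Median fold (left) and median log10 p (right, axis inverted so that more negative is higher) of peaks by their place along the gene. Places are counted from the 5′ end, for genes with 2, 3, 4 or 5 peaks. In each class the 5′-most peaks have the highest median fold and the log10 p closest to 0. For genes with 5 peaks the median fold is 9.22 at the first and 5.50 at the last place, and the median log10 p is -7.15 and -13.9.

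The same order was seen in genes with 2, 4 and 5 peaks. With 2 peaks the 5′ one had the larger fold in 55.8% (54.0 to 57.6) of 2965 genes, and with 5 peaks the first had a larger fold than the last in 66.0% (59.7 to 71.9) of 244. The 5′-most of 3 peaks was also narrower, with a median of 240 bases against 300 at both other places. Read numbers, recovered as described next, moved with place. In 228 genes with 3 peaks whose first and last peak differed in recovered input reads, the first had more input reads in 25.4% (19.9 to 31.6). Without genes that held a peak of 1 recovered input read, a choice made after the data were seen, the largest fold of 3 stood at the 5′-most peak in 43.6% (40.7 to 46.7) of 1086 genes. Peaks whose reads could not be recovered were kept, so peaks with few input reads can remain among these. Whether small input counts give the order of folds was not tested. Taking peaks of 1 block only, 941 genes held exactly 3 without a tie, whatever other peaks they had. The 5′-most of these 3 had the largest fold in 39.3% (36.2 to 42.5).

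The deposited values of many weak peaks matched whole read counts. For a peak with k IP and n input reads, a fold of 0.802 times k over n, together with the log10 p of a binomial tail at an IP share of 0.556, gave the listed pair of values within rounding for 5276 of the 8998 peaks with a log10 p above -8 (58.6%). Over the 231 pairs of constants tried, the median share that could be placed was 1.47%. Narrow peaks were placed more often, 75.4% of those up to 100 bases against 45.2% over 300. With 1 block 60.6% were placed, and with several 47.6%, so the placed peaks do not stand for all weak ones. Among the placed peaks the median was 30 IP reads and 3 input reads. In 1862 of them (35.3%) the input count was 1, which could also be a floor set by the caller, and in 3121 (59.2%) it was 5 or fewer. Placed peaks with 1 input read had a median fold of 14.4 on 11 to 36 IP reads, and those with more than 5 input reads had a median fold of 2.89. A high fold in a placed weak peak was therefore often a ratio to an input count of 1.

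Zfp469, a zinc finger gene with 11 peaks on chromosome 8, shows what such peaks look like. Its peak at 122989882 to 122990212 (fold 17.6, log10 p -4.58) corresponded to 22 IP reads over 1 input read. The last of them, 122998099 to 122998189 (fold 12, log10 p -2.94), corresponded to 15 over 1. Of the 11 peaks, 7 had a recovered input count of 1, which may be a floor of the caller, and no log10 p in the gene was below -4.58. The same pair of values, fold 12 with log10 p -2.94, recurred in peaks of Zfp618, Kmt2b, Slc4a3 and Cdk9.

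Among the 5204 peaks with the smallest q (log10 q of -27.6 or less, 25% of all), the largest folds stood in Traf3ip1 (148), a gene of intraflagellar transport, in Nsd1 (137), a histone H3 lysine methyltransferase gene, and in Mill2 (136), an MHC class I-like gene. The constants fitted on weak peaks gave 184, 171 and 170 IP reads over 1 input read for these. An input count of 1 could again be a floor set by the caller, so these folds may not be measured ratios. The Nsd1 peak lay on chromosome 13 at 55361380 to 55361920, at the 5′ end of 6 peaks whose other folds ran from 4.70 to 19.8. Next came Ikzf5 (fold 124) and Pstk (121), which are one place listed under genes of both strands, at 130993585 to 130994005 and 130993609 to 130993998 on chromosome 7. Cdk13 (121), Cdk9 (117), Mex3a (116), Ndnf (115) and Zfp281 (115) completed the first 10, and in 9 of the 10 the recovered input count was 1. Cdk13 and Cdk9 encode kinases of RNA polymerase II elongation. The Cdk9 peak at 32602222 to 32603088 on chromosome 2 was the only one of the 10 that could not be placed, with a log10 p of -55.7.

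The smallest log10 p values picked other genes. Myh6, which encodes the alpha myosin heavy chain of the heart, led with -11600 at a fold of 6.92, in a peak of 17 blocks and 3259 exonic bases (chromosome 14, 55181679 to 55194018). It was followed by mt-Nd5, a complex I subunit gene of the mitochondrial genome (-5480, fold 5.75), Atp2a2, the gene of the SERCA2 calcium pump (-4740, fold 9.25), and Tnnt2, the cardiac troponin T gene (-4210, fold 5.46, 8 blocks). Then came the essential light chain gene Myl3 (-2070, fold 2.60), the chaperone gene Hspa5 (-2060, fold 9.86), mt-Nd2 (-2000, fold 3.51), the cavin gene Cavin2 (-1710, fold 15.9), Popdc2 (-1660, fold 9.47) and the predicted gene Gm9800 (-1650, fold 8.54). Of these 10 genes, only Cavin2 exceeded a fold of 10, and none stood among the 10 largest folds. Over all 20766 peaks the rank correlation (Spearman's rho) of fold with log10 p was -0.24, a description over peaks that share 2 libraries.

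Width went with both measures. Spearman's rho was 0.40 for width with fold and -0.80 for width with log10 p (n = 20766). The median fold rose from 4.41 in 1776 peaks of at most 120 bases through 5.51 in the class up to 300 bases to 13.2 in 758 peaks over 1000 bases. Of the peaks of at most 120 bases 24.7% had a fold of at least 10, and of those over 1000 bases 73.1% did. The order was the same in peaks of 1 block (4.72 up to 180 bases, 11.8 over 500) and of several blocks (3.85 and 10.4). Widths were stepped: 84.3% lay within 1 base of a multiple of 30.

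**Figure D3:**
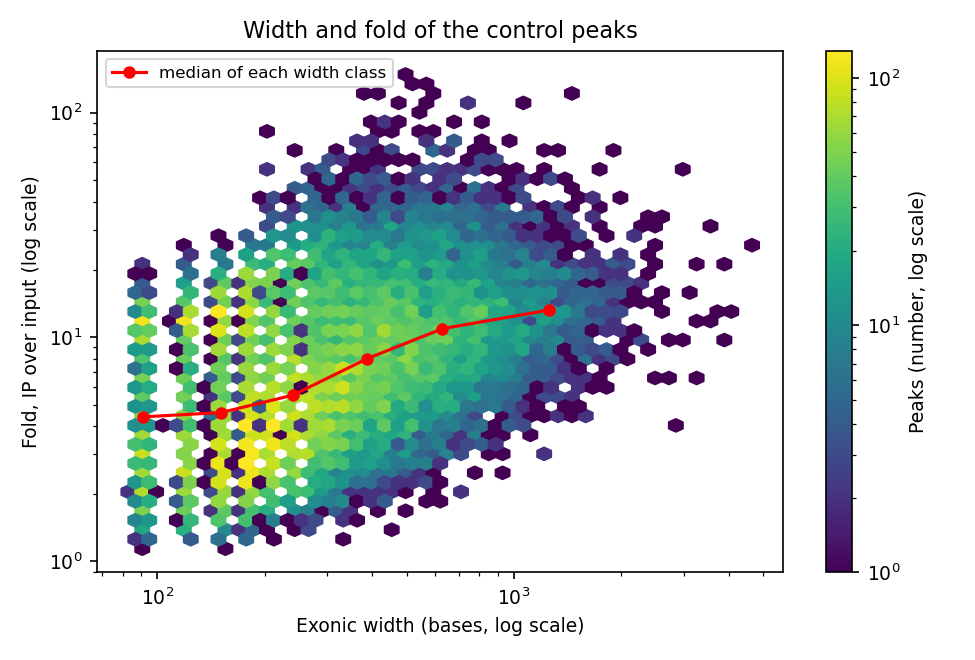
Fold of IP over input (vertical axis) against exonic width in bases (horizontal axis), both on log scales, for the 20766 control peaks; colour gives the number of peaks per cell. The red line joins the median fold of each width class, from 4.41 in the narrowest to 13.2 in the widest, and the vertical stripes at small widths are the 30-base steps.

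The widest peak, 4649 bases in 4 blocks, lay in Plec, the gene of the cytoskeletal linker plectin (chromosome 15, 76061471 to 76067344), with a fold of 24.3. Ankrd11, a chromatin cofactor gene, had 4138 bases in 1 block (fold 13.0), and this peak overlapped one on the other strand. Plin4, a lipid droplet coat gene, had 3625 bases (fold 30.3, log10 p -275), Pcdh7 had 3596 in 1 block (11.4), and Akap12, a kinase anchoring gene, had 3559 in 1 block (12.7). The Pcdh7 peak also overlapped one on the other strand. Rai1 had 3358 (fold 20.5) and Filip1l 3177 (fold 12). Peaks of Myh6 and Myh7b were as wide, with 3259 and 3825 bases. Of the 9 wide peaks named here, only that of Myh6 had a fold below 10.

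Several blocks were found in 4405 peaks, 21.2% of all (20.7 to 21.8), and 966 peaks had 3 or more. Multi-block peaks were wider than others (median 327 against 270 bases), spanned a median of 1834 genomic bases and had a median gap of 890.5 bases between blocks, over 5996 gaps. In 40.1% of them the smallest block was under 30 bases. In peaks of 3 or more blocks this can be an inner block, so the share does not measure how far peaks reach over a junction. Spearman's rho of block number with fold was -0.01. The most blocks, 22, stood in Eln, the elastin gene (chromosome 5, 134734602 to 134753953), with 1800 exonic bases, a fold of 7.73 and a log10 p of -451. Many blocks were also found in 3 myosin heavy chain genes: Myh7b with 18 blocks and 3825 bases (fold 10.1), Myh6 with 17, and Myh7, the slow isoform, with 15 blocks and 2514 bases (fold 6.71, chromosome 14, 55208946 to 55218688). This Myh7 peak overlapped one on the other strand.

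Most genes that write, erase and read m6A had a peak themselves. Of 25 such genes, 21 did (84%), against 42.9% of all protein-coding symbols, which is also the background for the counts of marked genes in the lists that follow. They had 52 peaks in all with a median fold of 8.27 (6.17 to 10.4), against 7.22 over all peaks. A fold of at least 10 was reached by 21 of the 52 (40.4%), near the 36.0% of all peaks. Mettl3, the catalytic subunit gene, had no peak, nor had the reader genes Ythdc2, Igf2bp1 and Elavl1. Its partner Mettl14 had 1 peak (chromosome 3, 123162993 to 123163232, fold 4.93, log10 p -10.1).

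Among the regulatory subunits of the writer, Virma had most peaks, 7 on chromosome 4, with folds from 3.44 to 14.5. The highest was that of a 2-block peak at 11526423 to 11526907 (log10 p -30.7). Zc3h13 had 5 peaks, the strongest at 75569191 to 75573402 on chromosome 14 (fold 12.7, log10 p -79.6). Wtap itself had 3 on chromosome 17, with folds of 9.90, 11.8 and 6.82 from the 3′ to the 5′ end. Rbm15, which recruits the complex to RNA, had 5 peaks within 107237577 to 107240450 on chromosome 3, and from 3′ to 5′ their folds were 8.94, 4.54, 9.62, 14.4 and 17.6. Its paralogue Rbm15b had 4 listed peaks with folds of 14.2 to 19.2, of which those at 106761402 to 106762805 and 106761950 to 106762818 on chromosome 9 overlap. The writer subunit gene Cbll1 had 1 peak with a fold of 13.9. Rbm15b was thus the only writer gene with several peaks in which every fold was above 10.

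The eraser genes had few peaks. Alkbh5 had a peak of 929 bases on chromosome 11 at 60428816 to 60429744 (fold 13.6, log10 p -64.4) and a weaker one at 60445088 to 60445327 (fold 4.33). Fto had 1 peak of 2 blocks that bridged 92135884 to 92168304 on chromosome 8 (600 exonic bases, fold 7.57). Of the other methyltransferase genes, Mettl16 had 1 peak (fold 12.4), Mettl5 1 (2.09, log10 p -2.41) and Zcchc4 1 (13.6, log10 p -3.40). The pair of values in Zcchc4 corresponded to 17 IP reads over 1 input read in a peak of Col6a3.

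All reader genes of the Ythdf group were marked over long stretches. Ythdf1 had 1 peak of 1315 bases (fold 6.17), Ythdf2 one of 1196 bases and 2 blocks (11.8, log10 p -143) and a second of 300 bases (6.48), and Ythdf3 one of 1618 bases (8.38, log10 p -124) and one of 360 bases at its 5′ side (16.8). Ythdc1, the nuclear reader, had 5 peaks with folds of 9.30, 7.18, 32.5, 10.4 and 4.26 from 5′ to 3′. Fmr1, the gene of the fragile X protein, held the largest fold of the list, 55.3, in a 2-block peak at 67722207 to 67723291 on the X chromosome (log10 p -24.6), and a peak with 3.74 further 3′. Hnrnpa2b1 had 4 peaks, of which the 5′-most had the largest fold, 10, and the 3′-most the smallest log10 p, -172. Hnrnpc had 1 with a fold of 1.65 at a log10 p of -5.58. Igf2bp2 had 2 adjacent ones (3.85 at log10 p -2.69 and 10.4 at -2.48), and Igf2bp3 1 (4.41 at -4.64). The Igf2bp2 peak with 10.4 had 13 recovered IP reads over 1 input read.

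Genes that define heart muscle, the labelled tissue, were nearly all marked: 32 of 34 sarcomere and Z-disc genes and all 18 genes of the intercalated disc had a peak, against 42.9% of all protein-coding symbols. The sarcomere peaks were of small fold and very small log10 p. Their 127 peaks had a median fold of 3.48 (3.02 to 4.08) and a median log10 p of -37.1, against 7.22 and -10.2 over all peaks. Only 9 (7.09%, 3.29 to 13.0) had a fold of at least 10, against 36.0%, and 55 (43.3%, 34.5 to 52.4) had several blocks, against 21.2%. Acta1 and Myot had no peak. Within Myh6 the folds of the other 4 peaks were 1.14, 2.81, 1.72 and 1.31, the first being the lowest of the whole list at a log10 p of -3.51. Tnnt2 had 6 peaks with folds of 1.88 to 5.46. Xirp2, an actin-binding repeat gene, departed from this picture: its 7 peaks on chromosome 2 had folds of 18.4, 10.4, 14.8, 7.62, 7.44, 2.99 and 6.64 from 5′ to 3′. The last was the widest (1558 bases, 67355222 to 67356779) and had the smallest log10 p, -36.0.

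In calcium handling, 22 of 27 genes had 50 peaks with a median fold of 4.86 and a median log10 p of -62.1. Atp2a2 had 1 peak, at 122639010 to 122640288 on chromosome 5. Ryr2, the release channel gene, had 6 on chromosome 13. Its 3′-most 5 had folds of 2.03 to 3.36, and the 5′-most had 7.22 at a log10 p of -3.25. Slc8a1, the sodium-calcium exchanger gene, had 5 with folds of 1.98 to 6.84. Camk2g, a calmodulin kinase gene, had 1 peak with a fold of 25.9 and a log10 p of -362, the largest fold in the strong peaks of this list. Cacnb2, a calcium channel subunit gene, had 4, with 9.75 in the strongest (log10 p -197). Sln, Calm2, Fkbp1b, S100a1 and Itpr1 had none.

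Ion channel and conduction genes (20 of 26, 67 peaks) were closer to all peaks, with a median fold of 6.36. Scn10a, a sodium channel gene, had 1 peak with a fold of 52.5. Cacna1h, a T-type calcium channel gene, had a peak of 1019 bases at its 3′-most place with a fold of 24.9. The 46 peaks of intercalated disc genes had a median fold of 4.25. Dsp, the desmoplakin gene, had a peak of 450 bases on chromosome 13 at 38379764 to 38380213 with a fold of 11.1 and a log10 p of -966, next to one of 2851 bases with 3.96. Lmo7 had 5, from 1.93 to 13.2.

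Cardiac transcription factor genes had a peak in 22 of 26 cases, with 54 peaks, a median fold of 6.51 (4.61 to 8) and a share of 77.3% (54.6 to 92.2) of marked genes with 2 or more peaks, against 50.8%. Gata5, Mef2d, Hand1 and Isl1 had none. Tbx20 held the largest fold among its strong peaks, 21.6 at 24636452 to 24636961 on chromosome 9 (log10 p -189). Prox1 had 5 peaks with folds of 2.02 to 8.02. Tead1, which binds DNA for the Hippo pathway, had 5, of which the 2 at the 5′ end had folds of 13.6 at log10 p -4.01 and -3.40, while the 3′-most had 3.71 at -75.2. The pair 13.6 with -3.40 corresponded to 17 IP reads over 1 input read in a peak of Col6a3. Ppara, the nuclear receptor of fatty acid use, had 4, with 19.5 in a 2-block peak.

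Peaks of energy metabolism genes were of small fold. Glycolysis genes had peaks in 15 of 23 cases (65.2%, against 42.9% of all protein-coding symbols), 30 peaks with a median fold of 3.17 (2.32 to 6.08). Genes without a peak included Aldoa, Pgk1, Eno1, Ldha and Ldhb, which encode abundant enzymes. Hk2, a hexokinase gene, held 8 of the 30, of which 2 overlap each other, and Hk1 held 4. In Hk1 the 5′-most peak had 15.2 at a log10 p of -6.83, and the 3 others had 2.11 to 4.86. Pfkfb2 had 15.6 in a peak of 600 bases. Fatty acid oxidation genes had peaks in 20 of 26 cases (76.9%), 40 peaks with a median fold of 4.23. Etfa, an electron transfer gene, had 1 with 24.1, and Mlycd had 4 with 2.24 to 3.39. Respiratory chain genes, taken by symbol, had peaks in 54 of 111 cases (48.6%) with a median fold of 3.63 and 1.22 peaks per marked gene, against 1.93 over all genes with a peak. Ndufb10 had 3, with folds of 1.24, 1.77 and 2.32.

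The immediate early genes and Myc stood at the other end. In 22 of 24 such genes there were 38 peaks with a median fold of 11.5 (8.10 to 13.5) and a median width of 522.5 bases, and 24 of the 38 had a fold of at least 10 (63.2%, 46.0 to 78.2). Myc had a peak of 807 bases with a fold of 43.7 and a log10 p of -110 on chromosome 15 at 61861238 to 61862044, beside one with 4.53. Klf6 had 28.1, 13.5 and 4.68 from 5′ to 3′, Klf4 2.48, 8.10 and 11.1, so the order of folds along the gene was opposite in these 2 genes. Fosl2 had 3, with folds of 11.8, 13.6 and 12 at log10 p values of -8.03, -3.61 and -39.4. Fosb and Mycl had none.

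Chromatin regulators had the most peaks per marked gene of the 19 gene lists. In 39 of 40 genes there were 171 peaks, 4.38 per marked gene, and 37 of 39 (94.9%, 82.7 to 99.4) had 2 or more. The median fold was 8.14 (6.82 to 9.62). Kmt2d had 11, with folds of 3.21 to 12.4. Kmt2a had 10, from 1.94 to 19.2, and its 3 peaks nearest the 5′ end had 19.2, 12.8 and 17.6 at log10 p values of -5.05, -3.17 and -4.58. The pairs 19.2 with -5.05 and 17.6 with -4.58 corresponded to 1 input read in peaks of Gm38394 and Ttn. The related gene Kmt2b had 8, with 28.5 at the strongest (chromosome 7, 30274160 to 30274939, log10 p -82.6). These genes are long, and a count per base of transcript was not made here. In Wnt, Notch and Hippo genes 31 of 33 had 85 peaks with a median fold of 8.56. Notch2 had 6 within 98053724 to 98057557 on chromosome 3, with 20.2 at the highest. Notch1 had 5, with 16.1 at the 3′-most, Notch4 had 25.1 in 1 of 4, and the kinase gene Lats2 had 7, with 14.5 at the 3′-most.

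Cell cycle genes had peaks in 15 of 28 cases (53.6%, against 42.9% of all protein-coding symbols). Of the 35 peaks, 10 lay in Mki67, the gene of the proliferation antigen Ki-67, with a fold of 13.1 in a peak of 899 bases (chromosome 7, 135300823 to 135301721). E2f1 and E2f3 had 3 each, with 9.67 and 15.7 at the highest. Cyclin and kinase genes such as Ccnb1, Ccne1, Cdk1 and Plk1 had none.

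Markers of other heart cell types had peaks in shares above, near and below the 42.9% of all protein-coding symbols. In a bulk pool fewer cells of a type, less RNA per cell and RNA without m6A cannot be told apart. Endothelial and endocardial genes had peaks in all 21 cases (39 peaks, median fold 5.75), fibroblast and matrix genes in 20 of 22 (60, 4.27), smooth muscle and pericyte genes in 11 of 14 (35, 6.77), immune genes in 7 of 16 (14, 5.92), erythroid genes in 4 of 15 (15, 3.8), and epicardial or neural genes in 2 of 12 (3, 19.9). The immune share, 43.8%, was near the background. Plvap, an endothelial diaphragm gene, had 23.8 in a peak of 742 bases. Pdgfra, a fibroblast receptor gene, had 30.6 in a peak of 929 bases (log10 p -146). Cspg4, the pericyte NG2 gene, had 8 with up to 33.8. Among immune genes C1qa had 13.8, while Ptprc and Adgre1 had no peak. Of the 15 erythroid peaks 9 lay in Sptb, a spectrin gene, and the globin gene Hbb-bs had 1 with 1.56. Myh11, the smooth muscle myosin gene, had a peak of 7 blocks with 24.9.

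**Figure D4:**
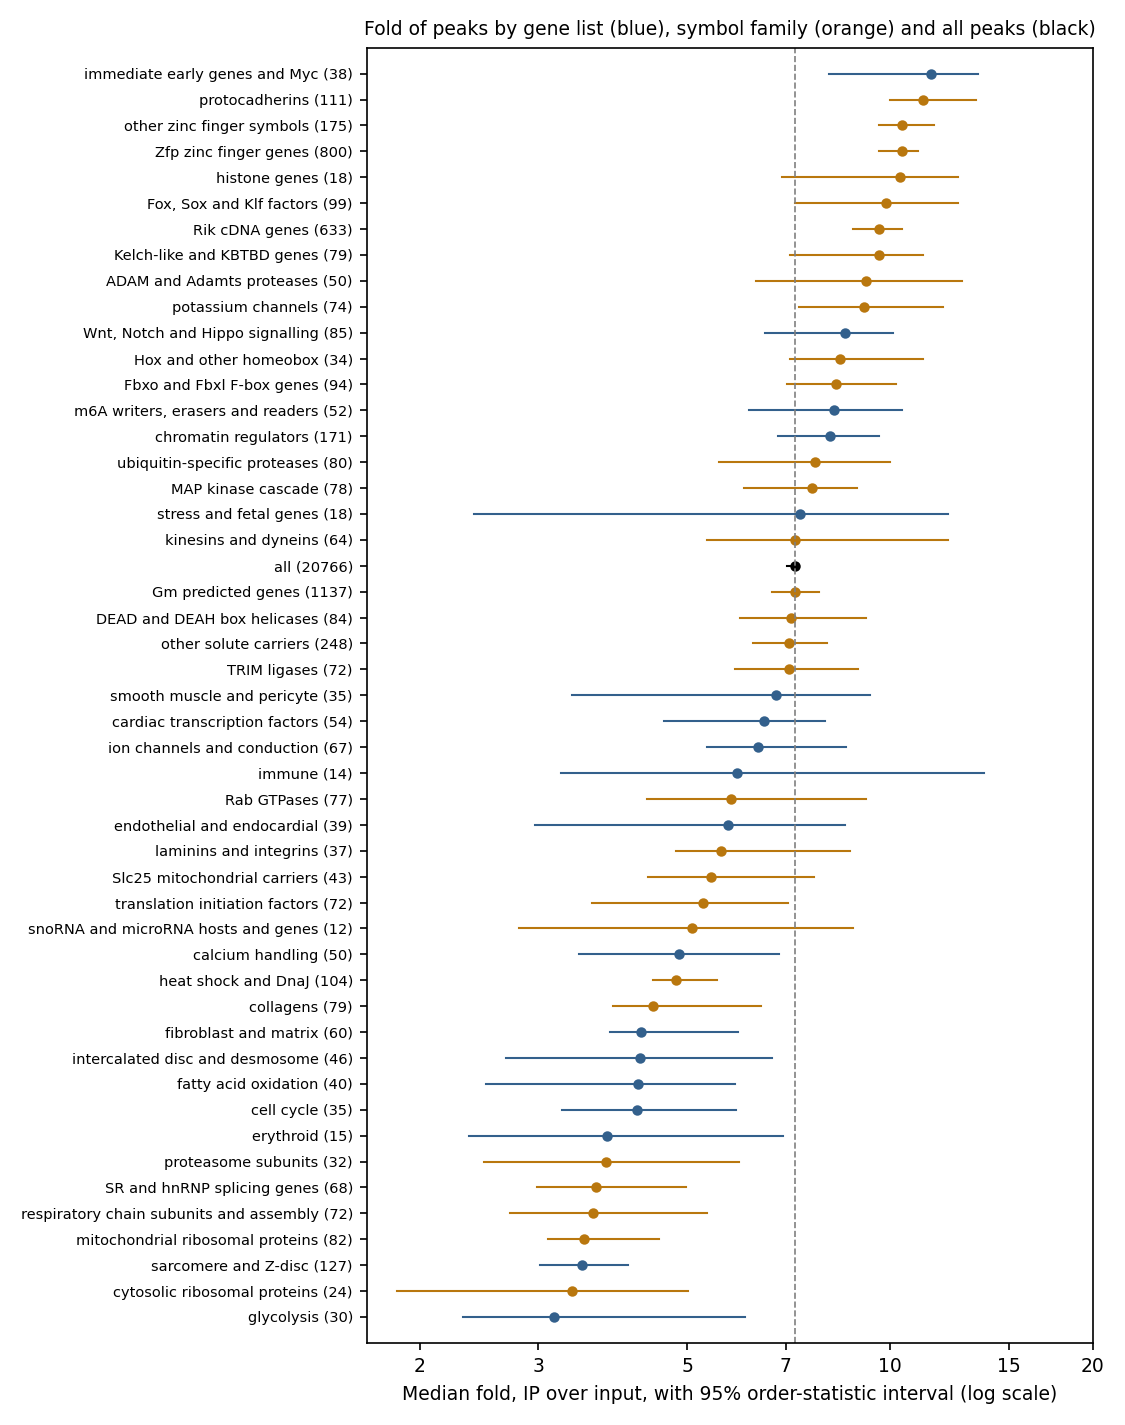
Median fold of IP over input (log scale) with its 95% interval by order statistics for each gene list (blue), each family taken by gene symbol (orange) and all peaks (black, dashed line at 7.22); the number of peaks is in brackets. Sets with fewer than 10 peaks are not drawn. Immediate early genes (11.5), protocadherins (11.2) and zinc finger genes (10.4) stand highest, and glycolysis (3.17), cytosolic ribosomal proteins (3.37) and sarcomere genes (3.48) lowest.

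Gene families, taken by the form of the symbol, spread as widely. Of 31 families, 16 had a median fold below 7.22, and of the 19 lists 13 did. Zfp zinc finger genes, most of which encode DNA-binding repressors, had 800 peaks in 315 genes. Their median fold was 10.4 (9.62 to 11), and 51.4% (47.8 to 54.9) of the peaks reached a fold of 10, against 36.0%. Only 8.75% (6.88 to 10.9) had several blocks, against 21.2%, and the median log10 p, -7.68, was closer to 0 than the -10.2 of all peaks. Zfp865 had 8 peaks on chromosome 7, with 26.0 and 27.3 in 2 of them that had log10 p values of -54.1 and -69.7. Zfp618 had 8 as well, but none below a log10 p of -6.78. The 175 peaks of other zinc finger symbols (Zbtb, Zscan and the like) had the same median fold, 10.4, with 62.6 and 47.9 in the 2 peaks of Zscan12.

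Protocadherin genes, which encode cell adhesion proteins and mostly have a very long coding exon, had 111 peaks in 40 genes. All 111 had 1 block, so an exact 95% interval allows up to 3.27% of several blocks. Their median fold was 11.2 (10 to 13.4) and their median log10 p -4.58. Pcdh17 had 8 peaks, with 75.4 in a peak of 390 bases (chromosome 14, 84683188 to 84683577, log10 p -25.2). Pcdh1 had 10 on chromosome 18, with 2.61 to 15. Fox, Sox and Klf factor genes had 99 peaks with a median fold of 9.87. Foxs1 had 2, with 37.7 and 44.5, and Foxc2 had 5, with 5.45 to 11.2 at log10 p values from -2.83 to -5.36. Kelch-like genes (79 peaks, 9.62) and potassium channel genes (74, 9.16) were also above 7.22.

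Families of the translation and protein machinery were below it. Cytosolic ribosomal protein genes had a peak in 20 of 85 cases, 23.5% against the 42.9% of all protein-coding symbols. Their 24 peaks had a median width of 166 bases and a median fold of 3.37 (1.85 to 5.01), and 3 of 21 marked genes had 2 or more. Rps18 had 2 narrow peaks with 6.42 and 6.02 at log10 p -3.64 and -2.33, and the 2 listed for Rps4l overlap. Mitochondrial ribosomal genes were marked in 59 of 78 cases (75.6%) with a like median fold, 3.51, and Mrps7 had 11.2 in a peak of 799 bases with a log10 p of -368. Proteasome genes had peaks in 26 of 51 cases (3.79), and this symbol family also took in Psme3ip1, which encodes no subunit. Translation initiation genes had peaks in 39 of 56 (5.28), with 10.6 at a log10 p of -940 in Eif4g1, the scaffold of cap-dependent initiation. Reads of ribosomal and other multi-copy genes can be shared with pseudogenes, and no source used here says how they were assigned.

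Splicing factor genes of the SR and hnRNP type combined small folds with split peaks: 68 peaks in 30 of 36 genes, a median fold of 3.66 (2.99 to 4.98) and several blocks in 48.5% (36.2 to 61.0). Srrm2 had 9, with 9.05 at its 5′-most, and Hnrnpdl had 41.5 at the 5′-most of 4 and 1.75 to 3.46 in the others. DEAD and DEAH box helicase genes also had many split peaks (41.7%, 31.0 to 52.9) but a median fold of 7.13, near that of all peaks. Collagen genes had 79 peaks with several blocks in 48.1% (36.7 to 59.6) and a median fold of 4.44. Col5a1 had 8, one of them of 7 blocks over 27900189 to 27904411 on chromosome 2 with 3.97.

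Peaks were also listed under genes other than annotated coding ones. The 601 peaks of 405 long noncoding RNA genes had a median fold of 10.4, and 52.4% (48.3 to 56.5) reached 10. They were weak by the other measure, with a median log10 p of -5.85 against -10.2 over all peaks. The 327 peaks of pseudogenes had a median fold of 4.23, and 1.83% (0.676 to 3.95) had several blocks. The 67 peaks of transcribed pseudogenes had a higher median fold, 9.62 (6.75 to 11.2), and 44.8% (32.6 to 57.4) reached 10. Their median log10 p was -5.39, against -10.1 in the 327 peaks of pseudogenes. Reads can be shared between a pseudogene and the gene it resembles. Whether the peaks of either class come from RNA of the pseudogenes themselves was not tested. Gene types came from RefSeq, and the 801 peaks without a matched symbol had 8.62 at a median log10 p of -6.61.

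Peaks under microRNA gene names came to 3. Their hairpins, as RefSeq (GRCm38.p6) gives them, are shown to let the consensus be looked for, with each GGACU in capitals.
Mir675: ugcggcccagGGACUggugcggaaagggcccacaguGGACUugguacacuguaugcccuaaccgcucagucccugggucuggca
Mir8114: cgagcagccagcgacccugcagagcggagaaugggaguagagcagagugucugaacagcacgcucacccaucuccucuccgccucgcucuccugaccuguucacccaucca
Mir6244: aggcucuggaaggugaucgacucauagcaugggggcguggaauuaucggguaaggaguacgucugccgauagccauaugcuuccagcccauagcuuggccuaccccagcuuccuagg

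The Mir675 hairpin held 2 matches to GGACU, searched on the given strand, and the other 2 held none. Of 1005 mouse hairpins 82 (8.16%) held at least 1. The Mir675 peak, at 142130801 to 142130884 on the minus strand of chromosome 7, was 84 bases wide, exactly the hairpin's length. It had a fold of 2.81 and a log10 p of -2.77. It lay inside a peak of its host gene H19, an imprinted long noncoding RNA, at 142130390 to 142131880, which had 1410 exonic bases, a fold of 6.91 and a log10 p of -1450. The peak of Mir8114 (fold 4.09) overlapped peaks of Glul and, on the other strand, Teddm2. That of Mir6244 (fold 8.82, log10 p -2.03) overlapped, on the other strand, a peak of Zc3h12c with a fold of 24.9. None of the 3 can be told apart from the gene it lies in or opposite to.

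Peaks were spread over all chromosomes. Chromosome 11 had 1699 peaks, chromosome 7 had 1689 and chromosome 2 had 1641. Among chromosomes with more than 100 peaks, split peaks were most frequent on chromosome 11 (25.6%, 23.5 to 27.7) and least on chromosome 18 (15.8%, 13.1 to 18.8). Chromosome 7 had the highest median fold of these, 8.02, and 41.9% (39.6 to 44.3) of its peaks reached 10. The X chromosome had 473 peaks in 285 genes. Of these genes, 42.5% (36.6 to 48.4) had 2 or more, against 51.0% (50.1 to 52.0) of autosomal genes. The median width on X was 240 bases, and Shroom4, an actin-regulating gene, led with 7 peaks and folds up to 29.7. On chromosome 17 the share was 56.9% (52.6 to 61.1).

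**Figure D5:**
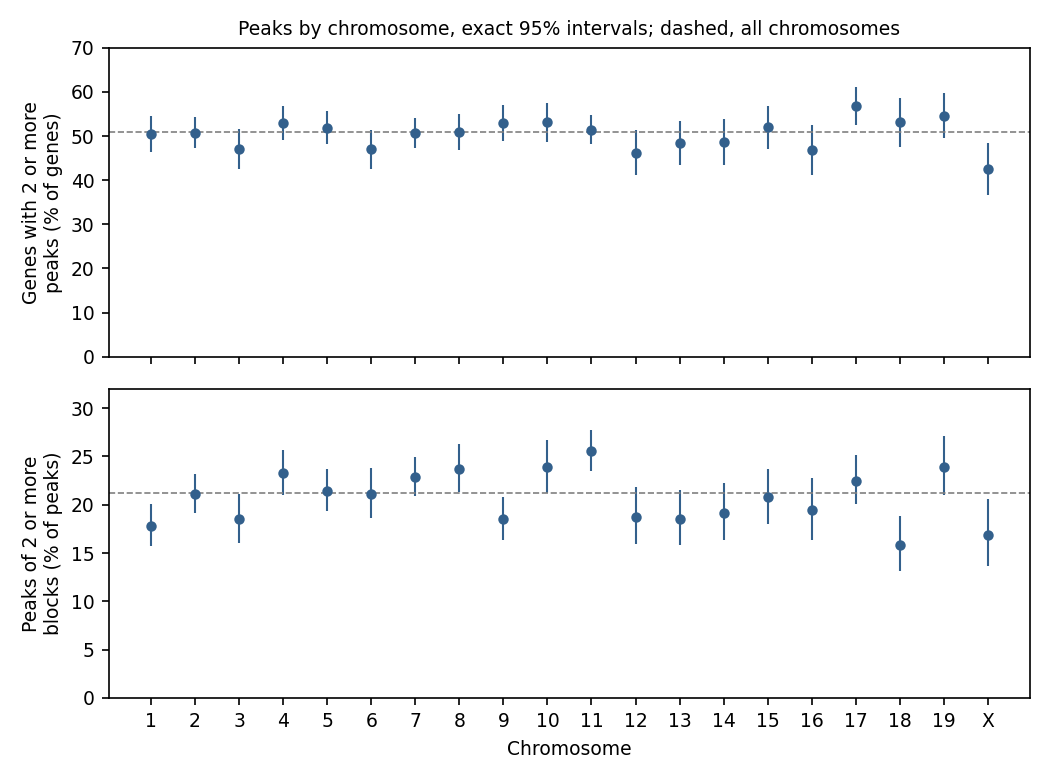
Share of genes with 2 or more peaks among genes with a peak (top, %) and share of peaks with 2 or more exonic blocks (bottom, %) by chromosome, with exact 95% intervals; the dashed lines are the shares over all chromosomes, 50.8% and 21.2%. Chromosomes with fewer than 100 peaks are not drawn. X lies lowest and 17 highest in the top panel, and 11 highest and 18 lowest in the bottom panel.

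The Y chromosome had 4 peaks, of which 3 lay in Kdm5d, a histone demethylase gene, with folds of 5.76, 14.4 and 17.6. The mitochondrial genome had 3: that of mt-Nd5 at 11742 to 11951 and those of mt-Nd2 at 3914 to 4092 (fold 3.51) and 4773 to 4951 (fold 1.60, log10 p -771). Their log10 p values were among the smallest of the list at folds below its median.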

How the data were processed

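The control IP and its input went into exomePeak 2.16.0 with a cut at q 0.05, per the labels' series text, and the authors deposited a list with exonic blocks, strand and Ensembl gene per peak. Build GRCm39, BWA 0.7.12, fastp 0.19.11 and HOMER 4.9.1 stand in the submitters' processing notes without roles; scaling of IP to input and assignment of shared reads are not given in the sources used here. The deposited p-value of each peak, the authors' fold (a linear ratio of IP over input) and their log10 p and q, read as a score since some are minus infinity, were taken as listed. Read totals were not used here, so library depth is unknown beyond the reads recovered for some peaks.

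Peaks, blocks, widths and genes were counted with pandas 2.3.3, numpy 2.4.6 and scipy 1.17.1 under Python 3.11.15, and drawn with matplotlib 3.10.9. Intervals (95%) are exact Clopper-Pearson ones for shares and order-statistic ones for medians; both take peaks as independent. No p-value was computed. Members, 19 gene lists and 31 symbol families were chosen with earlier results of these data known. Named genes (237) are Wtap and the m6A list; those leading by peak number, fold among the 25% of smallest q, log10 p, width and blocks; the leader of each chromosome; and up to 4 per list. Some genes that this rule takes are not reported here. Others (H19, Glul, Teddm2, Zc3h12c, the microRNA genes) were named after their values were seen, as was the recovery of reads. RefSeq (GRCm38.p6) served for synonyms, gene types and hairpins only; 10146 of 10715 symbols matched. Overlap, place and read recovery were tested on simulated data. Alternatives were q at or under 0.01 and 0.001, fold of at least 2, merged peaks, protein-coding genes only, peaks without other-strand overlap, and genomic span. Transcript regions, and motifs under peaks other than in 3 microRNA hairpins, need a GRCm39 genome and were not analysed here.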

Additional observations from a re-analysis of the deposited data

How the results depend on the processing

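The list comes from 1 pooled pair, so no alternative replaces a replicate. No paired analysis was possible because the control group has 1 IP and 1 input library. Genes with 2 or more peaks came to 46.9% at q at or under 0.001, 54.6% with protein-coding genes only and 49.8% without peaks that overlap one on the other strand. The median exonic width was 324 bases at q at or under 0.001 and 330 as genomic span. Peaks of 2 or more blocks came to 22.8%, and the median fold to 7.36, at q at or under 0.001. The median fold was 7.49 with folds of at least 2 only, and 6.42 over 18700 peaks without those placed at 1 input read, a setting chosen after the data were seen. In genes with exactly 3 peaks of 1 block, the largest fold lay at the 5′-most of these in 39.3%, a setting also chosen then. The cause of these shifts, beyond the peaks each setting leaves out, was not tested. At q at or under 0.001, 47 of 50 sets kept their side of the median fold of all peaks; smooth muscle and pericyte genes went from 6.77 to 7.49, kinesins and dyneins from 7.22, the median itself, to 11.6 and predicted Gm genes from 7.22 to 7.14. Protocadherins moved from 11.2 to 13.7. With overlapping peaks merged, the 12 peaks of the snoRNA and microRNA set became 9 and its median fold went from 5.07 to 8.02. The share of weak peaks placed at whole reads was 59.8% with a tolerance of 2 rounding units. Reads could be recovered for some peaks only, and small input counts limit the folds of those.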
